A study of Mus musculus with 4 samples.

Results

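The linker histone H1 genes comprised 7 of the 53465 genes in the expression table, chosen by symbol from these libraries with their FPKM values known. The replication-dependent linker histones were *Hist1h1a*, *Hist1h1b*, *Hist1h1c*, *Hist1h1d* and *Hist1h1e*, and the replacement linker histones were *H1f0* and *H1fx*. Long RNA-seq had been performed on mouse ovarian female germline stem cells (FGSCs), a cultured line labelled as germ stem cells. The cells of the shNC group (2 libraries) carried a control shRNA, and those of the shNAT10 group (2 libraries) carried an shRNA against *Nat10*, the writer of N4-acetylcytidine on RNA. Per the methods, both shRNAs came by lentivirus and infected cells were selected with a drug, so each group was a drug-selected culture. The mice of the study were kept on a C57BL/6J background, and neither the strain of the cultured line nor its age nor the time after infection was found in the sources used here. The comparison asked how linker histone RNA differed between FGSCs with and without the knockdown.

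Linker histones bind the nucleosome where DNA enters and leaves it, and fold nucleosome arrays into denser chromatin. Replication-dependent histone genes are transcribed mainly in S phase, and their mRNAs end in a conserved stem-loop, bound by SLBP, in place of a poly(A) tail. Replacement linker histones are made throughout the cell cycle from polyadenylated mRNAs, and *H1f0* is known to accumulate in resting and differentiated cells.

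The 5 *Hist1h1* genes belong to the large histone gene cluster on chromosome 13, and each has 1 exon. In the GRCm38 coordinates of GENCODE M21, *Hist1h1a* (ENSMUSG00000049539, *H1f1* in RefSeq) lies at chr13:23763666-23764406 on the plus strand. *Hist1h1b* (ENSMUSG00000058773, *H1f5*) lies at chr13:21779883-21780625 on the minus strand. *Hist1h1c* (ENSMUSG00000036181, *H1f2*) lies at chr13:23738808-23740367 on the plus strand. *Hist1h1d* (ENSMUSG00000052565, *H1f3*) lies at chr13:23553262-23560686 on the plus strand. *Hist1h1e* (ENSMUSG00000051627, *H1f4*) lies at chr13:23620629-23622558 on the minus strand. The replacement genes lie apart from the cluster, *H1f0* (ENSMUSG00000096210) at chr15:79028450-79030504 on the plus strand and *H1fx* (ENSMUSG00000044927, *H1f10*) at chr6:87980421-87981637 on the minus strand.

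The histone stem-loop is the 3' end named above for replication-dependent histone mRNAs, so its sequence is shown for each member transcript that holds it. The lines give the transcript sense in DNA letters from GENCODE M21, with the stem-loop in capitals and up to 5 bases on each side.
Hist1h1a: ccaacGGCTCTTTTCAGAGC
Hist1h1c: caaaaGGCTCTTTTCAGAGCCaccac
Hist1h1d: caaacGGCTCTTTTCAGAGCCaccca
Hist1h1e: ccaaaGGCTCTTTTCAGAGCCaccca

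The capitals lie at chr13:23764392-23764406 for *Hist1h1a*, chr13:23739512-23739527 for *Hist1h1c*, chr13:23555787-23555802 for *Hist1h1d* and chr13:23621782-23621797 for *Hist1h1e*, in the 3' UTR and on the strand of each gene. They begin 33, 24, 31 and 40 bases past the coding part, in the same order. The stem-loop letters were the same in all 4, but the *Hist1h1a* model stopped after 15 of its 16 bases. The *Hist1h1b* model ended with its coding part and held no stem-loop. RefSeq extends that gene by 51 bases, which were not read here. Neither *H1f0* nor *H1fx* held the motif. Among the core replication-dependent histones, 40 of 63 genes held it. Over the whole annotation, 61 of 55341 genes (0.110%) held it, 45 of them named Hist. A poly(A) signal AATAAA stood within 60 bases of the annotated end in *H1f0*, *H1fx* and *Hist1h1c*, and in none of the other *Hist1h1* models. Among all genes, 37.0% had 1 such signal or more at the end of a transcript.

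The promoters of the members are shown because the *Hist1h1* genes were higher together in the same libraries. Each line covers positions -130 to -15 before the RefSeq start (GRCm38.p6) on the strand of the gene. The capitals mark the box CCAAT, the TATA-type box TATAAA and the letters AAACACA, which are known as the H1 box of linker histone promoters.
Hist1h1a: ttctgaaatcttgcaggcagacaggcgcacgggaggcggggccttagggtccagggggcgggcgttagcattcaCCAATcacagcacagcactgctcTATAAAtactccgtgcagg
Hist1h1b: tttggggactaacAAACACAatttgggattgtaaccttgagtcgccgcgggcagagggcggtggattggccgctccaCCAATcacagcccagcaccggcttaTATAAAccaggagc
Hist1h1c: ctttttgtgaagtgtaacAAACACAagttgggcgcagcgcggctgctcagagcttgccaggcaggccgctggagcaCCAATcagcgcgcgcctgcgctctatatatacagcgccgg
Hist1h1d: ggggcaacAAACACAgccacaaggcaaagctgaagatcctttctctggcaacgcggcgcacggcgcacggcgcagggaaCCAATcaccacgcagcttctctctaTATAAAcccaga
Hist1h1e: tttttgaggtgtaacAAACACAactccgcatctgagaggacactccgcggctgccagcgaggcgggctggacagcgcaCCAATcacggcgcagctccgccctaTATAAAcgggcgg
H1f0: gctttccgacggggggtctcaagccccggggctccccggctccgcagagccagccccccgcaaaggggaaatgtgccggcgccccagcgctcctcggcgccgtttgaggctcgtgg
H1fx: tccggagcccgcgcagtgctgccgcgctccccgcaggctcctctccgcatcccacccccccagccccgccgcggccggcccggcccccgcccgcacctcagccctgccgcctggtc

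These windows lie at chr13:23763538-23763653 for *Hist1h1a*, chr13:21780640-21780755 for *Hist1h1b*, chr13:23738677-23738792 for *Hist1h1c*, chr13:23554902-23555017 for *Hist1h1d* and chr13:23622573-23622688 for *Hist1h1e*. Those of *H1f0* and *H1fx* lie at chr15:79028082-79028197 and chr6:87981497-87981612. All 5 *Hist1h1* promoters held CCAAT on the strand of the gene, with the copy nearest to the start beginning between -56 and -51. TATAAA stood in 4 of them, all but *Hist1h1c*, and AAACACA in 4 of them, all but *Hist1h1a*, beginning between -122 and -112. None of these motifs occurred in the RefSeq promoters of *H1f0* or *H1fx*, which reach past both ends of the window shown, on either strand. Of 32851 RefSeq promoters of the same length, 21.1% held CCAAT, 8.32% TATAAA and 3.57% AAACACA on the strand of the gene. With both strands searched, the shares were 37.4%, 13.6% and 7.18%. All 3 motifs on the strand of the gene were found in 51 promoters (0.155%), *Hist1h1b*, *Hist1h1d* and *Hist1h1e* among them. The E2F-type letters TTTCGCGC and TTTGGCGC, held by 0.323% and 0.514% of the promoters on either strand, were in none of the 7. Motifs present or absent here hold for the RefSeq starts only, and sequence before differing M21 starts was not searched. The M21 exon of *H1fx* begins 155 bases before its RefSeq start, so the *H1fx* window lies inside that exon. The *Hist1h1d* window, which held the motifs, also lies inside its M21 exon. For *H1f0* the M21 exon begins after the RefSeq start.

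The deposited unit, FPKM (fragments per kilobase of gene, scaled by a divisor for each library), depends on the length given to each gene. For all members but *H1f0*, the FPKM became whole fragments in every library with the M21 exon length, with a largest distance of 0.00112 from a whole number. For *H1f0* the M21 length of 2055 bases did not give whole fragments, and 2287 bases was the one length from 200 to 4000 that did. The annotated lengths were far from the RefSeq transcripts for part of the family. *Hist1h1d* had 7425 bases in M21 and 776 in RefSeq, a ratio of 9.57. *Hist1h1e* had 1930 against 782, and *Hist1h1c* 1560 against 725. *Hist1h1a* (741 against 745), *Hist1h1b* (743 against 794) and *H1fx* (1217 against 1062) differed less. FPKM thus divides *Hist1h1d* by a length many times that of its RefSeq transcript. Levels of the members were therefore also computed as the same fragments per kilobase of RefSeq transcript, a choice made after seeing the data.

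**Figure D1:**
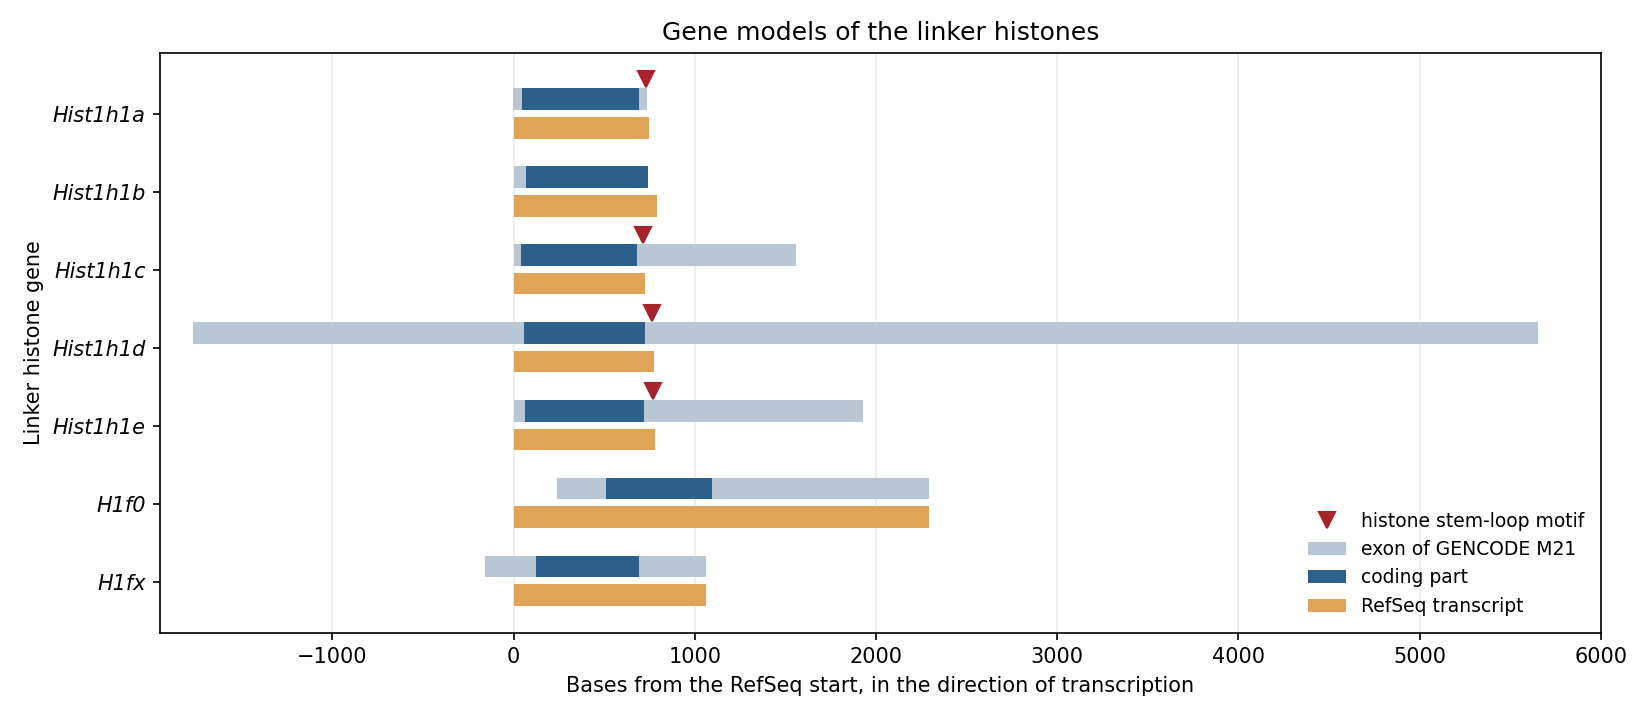
Exon of each linker histone gene in GENCODE M21 (grey-blue, coding part in dark blue) above its RefSeq transcript (orange), in bases from the RefSeq start along the direction of transcription; triangles mark the histone stem-loop motif. The *Hist1h1d* exon extends 1770 bases before and 4879 bases past the RefSeq transcript, and stem-loops were found in the *Hist1h1a*, *Hist1h1c*, *Hist1h1d* and *Hist1h1e* models.

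The libraries held 11055978 to 14900517 recovered fragments, of which rRNA-related loci (*Gm42418*, *Lars2* and others) took 46.8% and 36.3% in shNC and 24.2% and 26.2% in shNAT10. *Nat10* had an FPKM of 7.79 and 5.42 in the control cells and of 2.95 and 3.04 after knockdown. The log2 fold change of *Nat10* was -1.09 (SE 0.21, limma p = 0.0041, adjusted p = 0.123), and the exact two-sided permutation test gave p = 0.3333, the smallest that 2 against 2 libraries allow. Called here means a fold change over 1.2 with an unadjusted limma p of at most 0.05. *Nat10* was not called without shNAT10-1 or without shNAT10-2, at log2 fold changes of -1.07 and -1.11. Of 12 germ cell markers, 5 were at 0 in all 4 libraries, *Dazl* and *Pou5f1* among them, and *Ddx4* was above 0 in 1 library only (0.053 FPKM). The summed FPKM of the 12 was 10.03 and 22.8 in shNC and 28.0 and 34.6 in shNAT10, most of it from *Ifitm3*, at 9.29 to 33.6. All 8 leukocyte markers were detected, with summed FPKM of 530 and 581 in shNC and 422 and 441 in shNAT10, and 5 of them were called lower, beside 7.83% of all genes. Of the mast cell markers, *Cpa3* stood at 245 to 272 FPKM, while *Fcer1a* and *Tpsb2* were at 0 in every library; 1 of 4 tested was called higher, beside 8.41% of all genes, and 2 lower. Among 7 tested fibroblast markers 3 were called higher and 0 lower, beside 8.41% and 7.83% of all genes. *Dcn*, at 36.2 to 45.9 FPKM, was not called. The 8 granulosa cell markers summed to 2.47 to 3.87 FPKM, with *Foxl2* and *Fshr* at 0. The part of these cell types in the linker histone values was not tested.

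All 5 replication-dependent linker histones were higher in both shNAT10 libraries than in both shNC libraries, by 2.24 to 3.69 times in group means, while *H1f0* was higher by 1.24 times. Since the members were chosen on these values, their changes are descriptions and carry no test. The unit of the paragraphs that follow is FPKM, the mean ± SD is over n = 2 libraries, and log2 fold changes are on the log2(FPKM + 0.1) scale. In bulk RNA, more cells in S phase and more histone RNA per cell cannot be told apart.

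*Hist1h1a*, the H1.1 gene and a subtype of restricted tissue expression, was at 434 and 330 FPKM in the shNC libraries and at 1400 and 1419 FPKM in the shNAT10 libraries. Within shNC the values lay 0.40 apart on the log2 scale and within shNAT10 0.02 apart, and the groups did not overlap. The mean went from 382 ± 73.9 to 1410 ± 13.2 FPKM, a log2 fold change of 1.90 (SE 0.16). Among 22040 protein-coding genes, *Hist1h1a* ranked 55 and 90 by FPKM in shNC and 11 and 10 in shNAT10.

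*Hist1h1b*, the H1.5 gene, was at 122 and 116 FPKM in the shNC libraries and at 399 and 352 FPKM in the shNAT10 libraries. The lowest shNAT10 value was 2.89 times the highest shNC value. Its log2 fold change was 1.66 (SE 0.10), from means of 119 ± 4.44 and 375 ± 33.0 FPKM. The ranks among protein-coding genes were 195 and 237 in shNC and 66 and 73 in shNAT10.

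*Hist1h1c*, the H1.2 gene and one of the widely expressed subtypes, was at 349 and 354 FPKM in the shNC libraries and at 798 and 778 FPKM in the shNAT10 libraries. The shNC libraries lay 0.02 apart on the log2 scale and the shNAT10 libraries 0.04 apart. The log2 fold change of 1.16 (SE 0.09) was the smallest of the 5 *Hist1h1* genes. Ratios of single libraries between the groups ran from 2.20 to 2.28.

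*Hist1h1d*, the H1.3 gene, was at 13.0 and 13.8 FPKM in the shNC libraries and at 46.9 and 49.4 FPKM in the shNAT10 libraries. On the RefSeq length the same fragments gave a level, scaled by the same divisors, of 124 and 132 in shNC and 449 and 472 in shNAT10. Its log2 fold change was 1.84 (SE 0.09). In fragments, 1132 and 1213 in shNC stood against 4372 and 5620 in shNAT10. How many of these fell outside the RefSeq transcript cannot be read from values per gene.

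*Hist1h1e*, the H1.4 gene, was at 54.3 and 70.4 FPKM in the shNC libraries and at 155 and 149 FPKM in the shNAT10 libraries. The shNC libraries were 0.37 apart on the log2 scale, with shNC-2 the higher, whereas for *Hist1h1a* shNC-1 was the higher. The log2 fold change was 1.30 (SE 0.15). The M21 exon of *Hist1h1e* overlaps 496 bases of *Hist1h2be* and 320 bases of the pseudogene *Gm11398* on the same strand. Of its 150-base windows, 19.5% occur in these genes too, so its fragments are less certain than those of the other 4 *Hist1h1* genes, none of which shared such a window with another gene.

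*H1f0* was at 35.4 and 37.0 FPKM in the shNC libraries and at 44.3 and 45.6 FPKM in the shNAT10 libraries. The groups did not overlap, and single-library ratios ran from 1.198 to 1.29, all below the lowest *Hist1h1* ratio of 2.11. The log2 fold change was 0.31 (SE 0.08), from means of 36.2 ± 1.17 and 45.0 ± 0.911 FPKM. An antisense gene, *Gm49544*, overlaps 163 bases of *H1f0*.

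*H1fx*, which encodes H1.10 (H1X), was barely detected, at 0.210 and 0.277 FPKM in the shNC libraries and at 0.327 and 0.536 FPKM in the shNAT10 libraries. These values rest on 3, 4, 5 and 10 fragments. The summed ratio of shNAT10 to shNC was 1.82, with a 95% exact interval of 0.697 to 5.26 that covers counting error only. Its log2 fold change was 0.61 (SE 0.43), and an antisense gene, *Gm5577*, overlaps 755 of its bases.

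**Figure D2:**
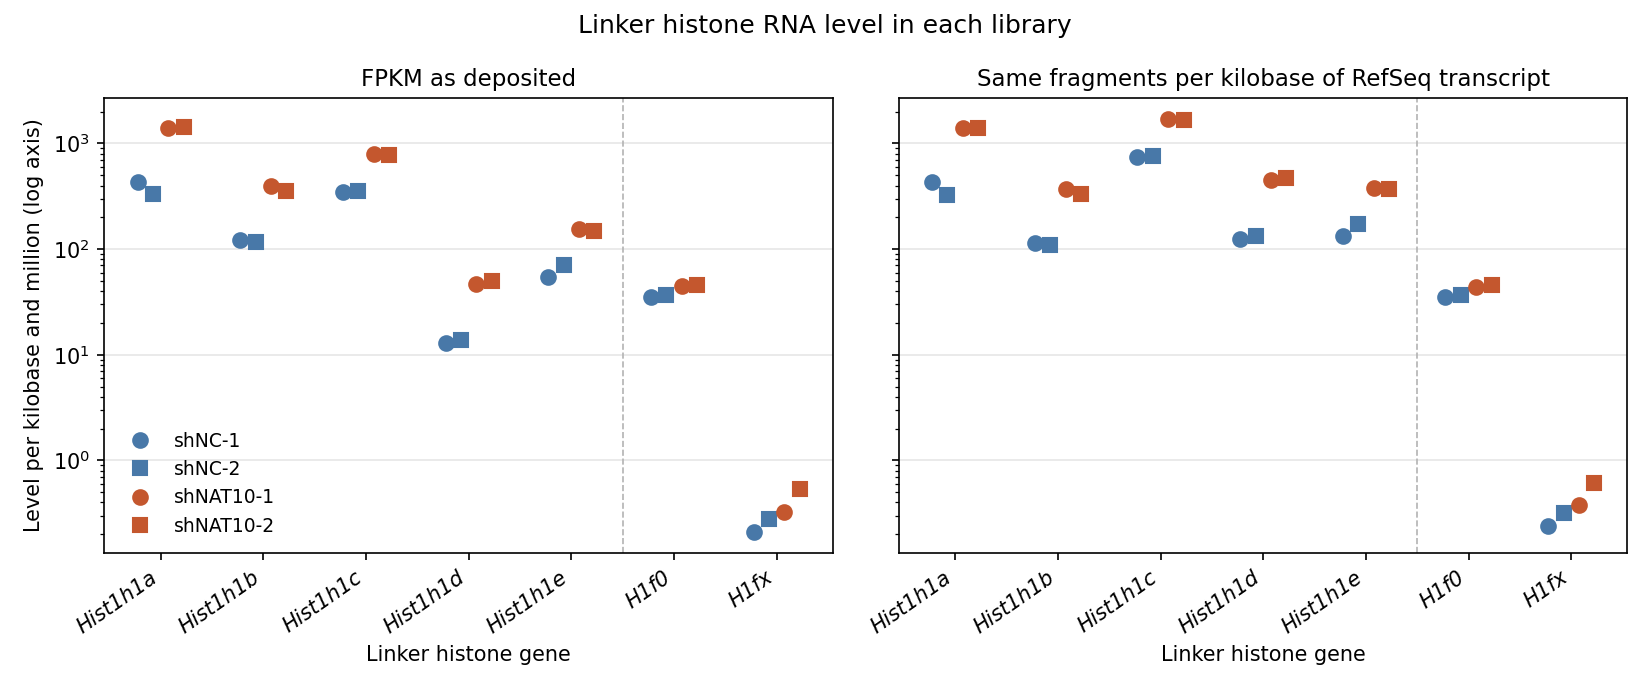
Level of each linker histone gene in each library on a log axis, as deposited FPKM (left) and as the same fragments per kilobase of RefSeq transcript, scaled by the same divisors (right). Blue points are shNC, orange points shNAT10, circles replicate 1 and squares replicate 2, and a dashed line parts replication-dependent from replacement genes. The shNAT10 points of the 5 *Hist1h1* genes sit clearly above the shNC points, *H1f0* lies at 35.4 to 45.6 FPKM, and *Hist1h1d* moves up on the right.

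All 7 members passed the filter of a mean FPKM of at least 0.1. Both shNAT10 libraries were above both shNC libraries for 7 of 7 members, beside 23.9% of all 20116 genes tested, and 24.1% of those genes had the opposite order. The threshold for a call was passed upwards by 6 of 7 members (all but *H1fx*) beside 8.41% of all genes, and downwards by 0 members beside 7.83%. An adjusted p under 0.05 was given to 4 members (*Hist1h1a*, *Hist1h1b*, *Hist1h1c* and *Hist1h1d*), beside 0.333% of all genes higher and 0.104% lower. No gene of the table had one with any library left out, with the replicate block, without the trend, with no filter or with either other pseudocount. The choice of members used these same values, and nothing is read from these counts.

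The single-library ratios of the *Hist1h1* genes fell into 2 ranges that did not overlap. Those of *Hist1h1a* (3.23 to 4.31), *Hist1h1b* (2.89 to 3.45) and *Hist1h1d* (3.41 to 3.80) lay above those of *Hist1h1c* (2.20 to 2.28) and *Hist1h1e* (2.11 to 2.86). All of them come from the same 4 libraries, so the separation was not tested.

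The order of the levels depended on the length. By FPKM, *Hist1h1a* and *Hist1h1c* were the highest in shNC, where their values overlapped, followed by *Hist1h1b*, *Hist1h1e*, *H1f0*, *Hist1h1d* and *H1fx*. In shNAT10, *Hist1h1a* stood above *Hist1h1c*, and *Hist1h1d* (46.9 and 49.4) passed *H1f0* (44.3 and 45.6). Per RefSeq kilobase, *Hist1h1c* was the highest in every library, at 752 and 761 in shNC and 1718 and 1674 in shNAT10. *Hist1h1a* followed at 432 and 328 in shNC and 1393 and 1411 in shNAT10. On that scale *Hist1h1e* (134 and 174) and *Hist1h1d* (124 and 132) stood next in shNC and changed places in shNAT10, with *Hist1h1d* at 449 and 472 and *Hist1h1e* at 383 and 367. *Hist1h1b* (372.96 and 329 in shNAT10) overlapped *Hist1h1e* there. *H1f0* and *H1fx* were the lowest members per RefSeq kilobase in all 4 libraries.

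The summed FPKM of the 5 *Hist1h1* genes was 973 and 883 in shNC and 2799 and 2747 in shNAT10, a ratio of the means of 2.99. Per RefSeq kilobase the ratio was 2.80. In fragments, the 5 genes took 0.172% and 0.160% of all fragments outside rRNA-related loci in shNC and 0.483% and 0.480% in shNAT10. The summed *Hist1h1* level was 27.5 and 23.8 times that of *H1f0* in shNC and 63.1 and 60.2 times in shNAT10. Per RefSeq kilobase it was 44.1 and 40.7 times in shNC and 97.6 and 93.5 times in shNAT10. The replication-dependent part of the pool thus stood further above *H1f0* in both shNAT10 libraries on either length.

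Within the pool of all 7 members, the share of *Hist1h1a* was 43.1% and 35.8% of the summed FPKM in shNC and 49.2% and 50.8% in shNAT10. The share of *Hist1h1c* was 34.7% and 38.4% in shNC and 28.1% and 27.9% in shNAT10. *Hist1h1a* stood at 1.24 and 0.932 times the level of *Hist1h1c* in shNC and at 1.75 and 1.82 times in shNAT10. Per RefSeq kilobase *Hist1h1c* was the larger in every library, and the same ratio was 0.574 and 0.431 in shNC and 0.811 and 0.843 in shNAT10. The ratio was higher in both shNAT10 libraries on either length, while which of the genes was the larger part changed with the length. The share of *Hist1h1d* was 1.29% to 1.77% by FPKM and 7.80% to 10.98% per RefSeq kilobase. *H1f0* made up 3.51% and 4.02% of the summed FPKM in shNC and 1.56% and 1.63% in shNAT10.

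**Figure D3:**
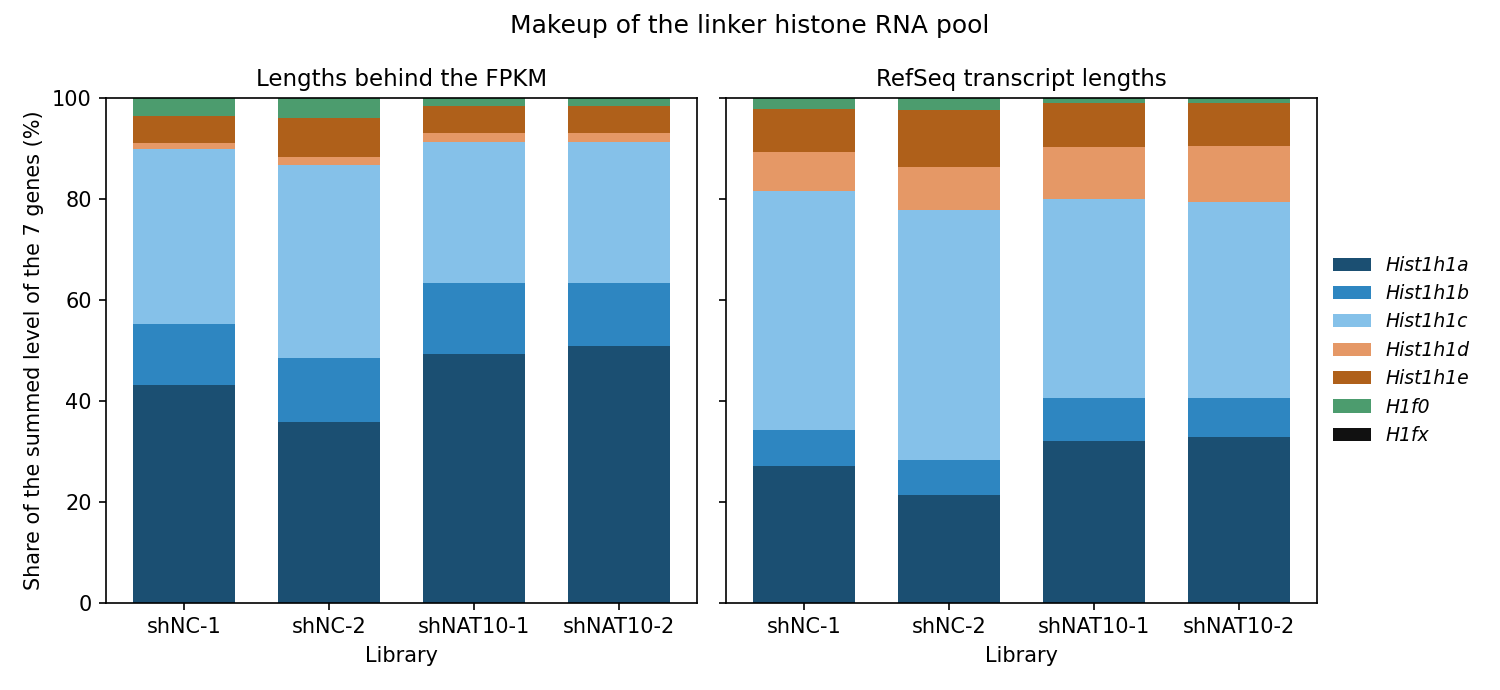
Share of each gene in the summed level of the 7 linker histone genes (% of the total, stacked from 0 to 100) in each library, by deposited FPKM (left) and per RefSeq kilobase (right). By FPKM the *Hist1h1a* share is 43.1% and 35.8% in shNC and 49.2% and 50.8% in shNAT10, and the *H1f0* band is thinner in both shNAT10 libraries; *H1fx* is too small to see.

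The germline linker histones, which package chromatin in oocytes or in meiotic and later male germ cells, were at or near 0. *Hist1h1t* had 0 and 3 fragments in shNC and 0 and 3 in shNAT10. *H1foo*, the oocyte form, had 1 and 0 fragments in shNC and 2 and 0 in shNAT10. *H1fnt* had 1 fragment in 1 shNAT10 library and *Hils1* none in any library. A count of 3 fragments corresponds to 0.163 to 0.213 FPKM for *H1foo* and to 0.226 to 0.296 FPKM for *Hils1*.

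The core replication-dependent histones, which build the nucleosome itself, gave the nearest comparison. Of 63 genes listed, 61 were tested; 56 were called higher and 0 lower, beside 8.41% and 7.83% of all genes, and the median log2 fold change was 1.28, beside 0.005 over all 20116 genes tested. An adjusted p under 0.05 was given to 20 of them, beside 0.333% of all genes higher, but to 0 genes of the table with any library left out, with the replicate block, without the trend, with no filter or with a pseudocount of 1 or 0.01. The largest rises by the naming rule were *Hist2h2aa2* (6.93 and 5.26 FPKM in shNC, 61.3 and 12.8 in shNAT10, log2 fold change 2.20, SE 0.76) and *Hist1h4m* (6.35 and 9.64 against 41.0 and 26.1, 2.05, SE 0.30). The *Hist2h2aa2* rise leans on shNAT10-1. Among the 66 replication-dependent histones tested, linker and core together, *Hist1h1a* ranked 4, *Hist1h1d* 8, *Hist1h1b* 14, *Hist1h1e* 34 and *Hist1h1c* 44 by log2 fold change. The *Hist1h1* genes thus lay within the range of the core histones and spread from its top to below its middle. Without shNAT10-1 the count of core histones called higher was 37.

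The profile of the summed *Hist1h1* FPKM over the 4 libraries was nearest to 3 core histone genes, among the 5240 protein-coding genes whose mean FPKM reached 5. They were *Hist1h2bp* (root mean square difference 0.079 on the log2 scale), *Hist1h2ai* (0.081) and *Hist1h2ab* (0.088). Nearest to *H1f0* were *Thoc2* (0.0051), *Rcc1l* (0.0095) and *Ube3a* (0.014), none of them a histone gene. Nearest to *H1fx*, which rests on few fragments, were *Gsdmd* (0.062), *Tubb6* (0.087) and *Ifi35* (0.090). With 4 points in a profile these are descriptions.

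Of the replication-independent core histone variants, 2 of 9 were called higher (8.41% of all genes) and 0 lower (7.83%), with a median log2 fold change of 0.06. The number called higher was 1 without shNAT10-1, without shNAT10-2 or in limma without the trend, and 3 without shNC-2. *H2afx*, whose mRNA can end in a stem-loop or in a poly(A) tail, was at 175 and 137 FPKM in the shNC libraries and at 378 and 347 FPKM in the shNAT10 libraries (log2 fold change 1.23, SE 0.15, limma adjusted p = 0.0692). *H3f3b*, a gene of the replacement histone H3.3, had a log2 fold change of 0.35 (SE 0.09, limma adjusted p = 0.191).

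Of 17 tested factors that transcribe histone genes or process the 3' end of their mRNAs, 2 were called higher (11.8%, beside 8.41% of all genes) and 0 lower, and the median log2 fold change was 0.11. Without shNAT10-1 or without shNAT10-2, 1 was called higher, and without shNC-2, 1 was called lower. Those called were *Casp8ap2* (FLASH, needed for histone pre-mRNA processing), from 4.79 and 4.47 to 7.31 and 7.05 FPKM (log2 fold change 0.62, limma adjusted p = 0.117), and *Ncbp2*, a subunit of the nuclear cap-binding complex, from 8.09 and 10.6 to 14.3 and 14.0 FPKM (0.61, adjusted p = 0.188). *Slbp*, the protein that binds the stem-loop printed above, was at 6.66 and 6.96 FPKM in the shNC libraries and at 8.12 and 7.41 FPKM in the shNAT10 libraries and was not called (log2 fold change 0.19, SE 0.11). *Npat*, the coactivator of histone genes in S phase, was at 4.29 and 4.25 FPKM in the control cells and at 4.37 in both shNAT10 libraries, and was not called either.

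Of 17 chaperones of H1 and proteins that compete with H1 for nucleosomes or linker DNA, 3 were called higher and 1 lower, beside 8.41% and 7.83% of all genes, with a median log2 fold change of 0.12. *Hmgn3*, a nucleosome-binding HMG protein, was at 2.14 and 2.25 FPKM in the shNC libraries and at 4.35 and 3.49 FPKM in the shNAT10 libraries (log2 fold change 0.80, SE 0.17). *Hmga2*, an AT-hook protein, had a log2 fold change of 0.58 (SE 0.14), and *Hmgn2* one of -0.84 (SE 0.19), from 8.15 and 5.84 to 3.85 and 3.75 FPKM. None of these reached an adjusted p under 0.05 in limma. The number called higher was 1 without shNC-2 and 1 without shNAT10-1, and the number called lower was 0 without either shNAT10 library. *Nasp*, a histone chaperone that binds H1, was at 12.1 and 9.25 FPKM in the shNC libraries and at 13.3 and 10.6 FPKM in the shNAT10 libraries, and was not called.

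Genes of DNA replication, which are expressed in S phase as the *Hist1h1* genes are, formed the next list. Of 28 tested, 17 were called higher, beside 8.41% of all genes, and 0 lower, beside 7.83%. An adjusted p under 0.05 was given to 0 of them, beside 0.333% of all genes higher, and the median log2 fold change of 0.42 was below that of every *Hist1h1* gene and above that of *H1f0*. *Tk1*, thymidine kinase, rose from 2.997 and 2.64 to 5.20 and 5.60 FPKM (log2 fold change 0.91, limma adjusted p = 0.0899). *Rrm1*, the large subunit of ribonucleotide reductase, rose from 15.6 and 14.6 to 26.5 and 27.9 FPKM (0.84, limma adjusted p = 0.0584). The count called was 4 without shNAT10-1, 4 without shNAT10-2 and 6 in limma without the trend.

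Genes of cell cycle exit, the setting in which *H1f0* is known to accumulate, gave 7 of 14 called higher and 1 lower (8.41% and 7.83% over all genes), with a median log2 fold change of 0.41. *Gas1*, a growth arrest gene, was at 1.15 and 0.768 FPKM in the shNC libraries and at 3.93 and 2.97 FPKM in the shNAT10 libraries (log2 fold change 1.76, SE 0.27). *Btg2*, an antiproliferative gene, had a log2 fold change of 1.05 (SE 0.16) and its relative *Btg1* one of -0.61 (SE 0.21). Without shNAT10-1, 2 were called higher, and without shNC-2 or shNAT10-2, 4 each; *Btg1* was called in no fit that left out a library.

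**Figure D4:**
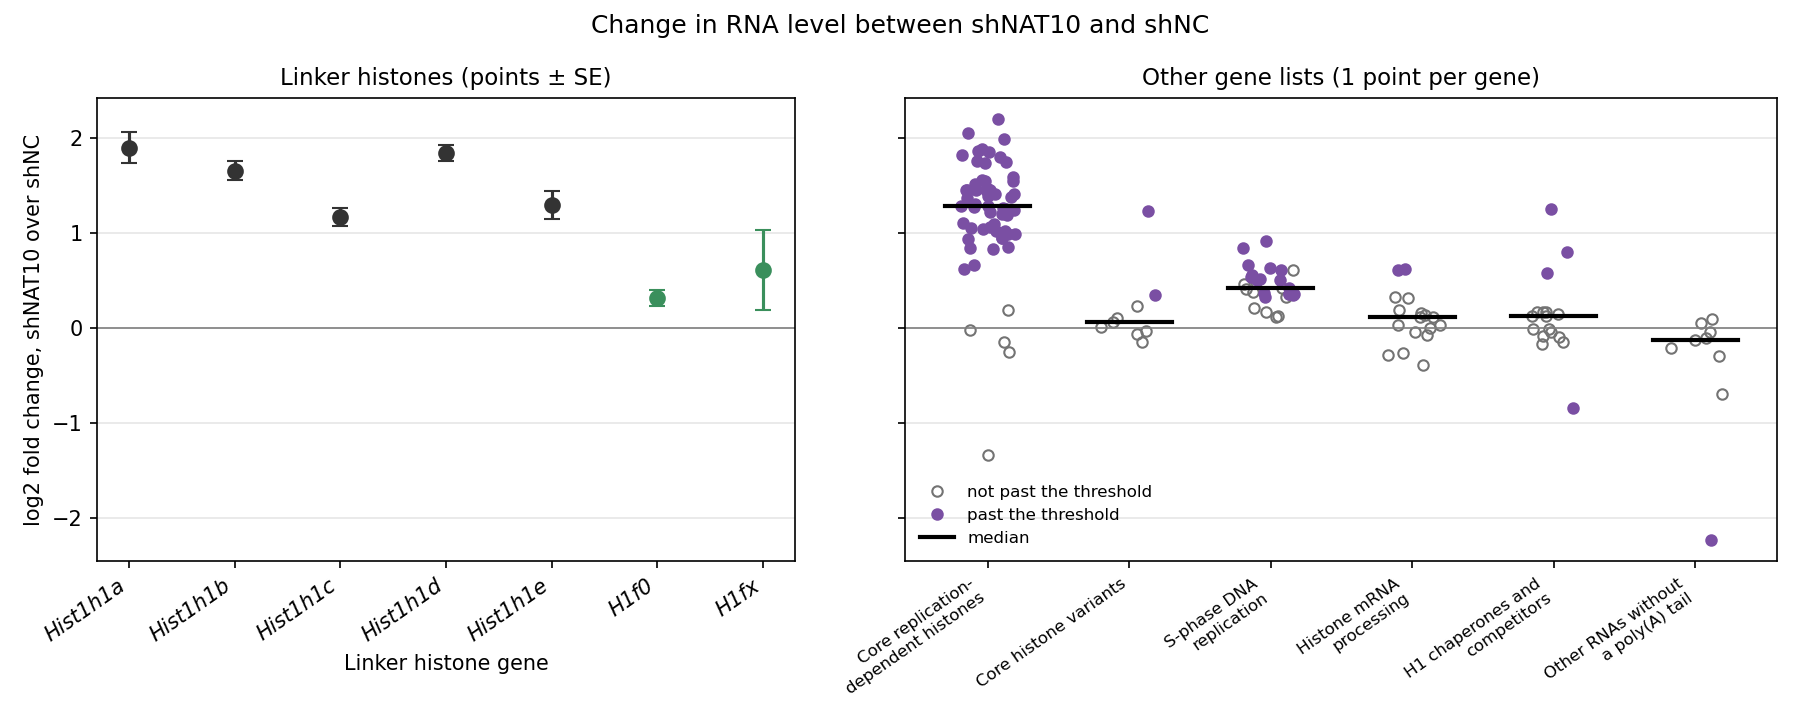
Left, log2 fold change of shNAT10 over shNC for each linker histone gene (points) with its SE (bars), replication-dependent genes in black and replacement genes in green. Right, the same quantity for each tested gene of 6 other lists, filled where past the threshold of a fold change over 1.2 with an unadjusted p of at most 0.05, with the median as a bar; the *Hist1h1* genes lie at 1.16 to 1.90, the core histone median at 1.28 and the S-phase median at 0.42.

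The records differ on how the RNA was selected, which bears on mRNAs that lack a poly(A) tail. The methods name rRNA depletion with a long RNA-seq kit, whereas the sample labels name an oligo(dT)-type mRNA isolation. Other RNAs without a poly(A) tail were therefore listed beside the histones. Of 9 tested, 0 were called higher and 1 lower in limma, beside 8.41% and 7.83% of all genes (0 higher also with every library left out in turn), and the median log2 fold change was -0.12. The number called lower was 0 without shNAT10-1, 0 without shNAT10-2 and 2 without shNC-1. *Terc*, the telomerase RNA, was at 167 and 212 FPKM in the shNC libraries and at 166 and 180 FPKM in the shNAT10 libraries. *Rn7sk* was at 55303 and 72238 FPKM in the shNC libraries and at 68969 and 65686 FPKM in the shNAT10 libraries. The gene called lower was *Rn7s2*, a 7SL RNA gene, with 10.5 and 21.9 FPKM in the controls and 2.39 and 4.13 FPKM after knockdown. The share of rRNA-related loci, given above, was lower in both shNAT10 libraries, and scaling the libraries to the same total without those loci gave log2 fold changes of 1.21 for *Hist1h1c* and 0.35 for *H1f0*.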

How the data were processed

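RNA of 4 libraries, 2 shNC and 2 shNAT10, grouped by their titles, was compared. The values are FPKM as the authors deposited them, 1 per library for 53465 genes. The submitters' processing notes name cutadapt, HISAT2, DESeq2 and mm10, while the annotation and the counting program are not given in the sources used here. Columns of single libraries left out numbered 0. A second table with the authors' own log2 fold changes and p-values was not used.

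The 20116 genes whose mean FPKM reached 0.1 were fitted as log2(FPKM + 0.1) in limma 3.58.1 under R 4.3.3 (lmFit, eBayes with trend, two-sided), with Benjamini-Hochberg adjustment over all of them. This scale understates changes of low genes. Calls required an unadjusted limma p of at most 0.05 with a fold change over 1.2. Both limits are those of the study, whose methods name another tool for the test. The p-values rest on the spread between 2 libraries a group, which the study calls biological replicates. The eBayes step draws the variance of each gene towards a trend over all genes tested. Each p-value and SE thus depends on that trend too. Whole fragments were recovered from the FPKM with GENCODE M21 exon lengths: 96.0% to 96.5% of values under 50 fragments came out whole within 0.02. Exact Poisson and binomial intervals at 95% and a floor of 3 fragments cover counting error only.

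The members and gene lists were chosen with earlier results of these data known. Genes were named by rule: the members, *Nat10*, detected germline linker histones, the 2 largest called rises and falls of each list at a mean FPKM of at least 1, detected markers and RNAs without a poly(A) tail, and the 3 nearest profiles. *Slbp*, *Npat* and *Nasp*, and the markers and *Hils1* at 0 in every library, were named for their roles after their values had been seen. Promoters were taken from RefSeq and transcripts from GENCODE M21; all 7 members matched. Alternatives were pseudocounts of 1 and 0.01, no filter, a mean FPKM of at least 1, scaling without rRNA-related loci, median-ratio rescaling, limma without trend, limma-voom on recovered fragments, the replicate number as a block, and each library left out. The fit was tested on simulated data. Python 3.11.15 with numpy 2.4.6, pandas 2.3.3, scipy 1.17.1 and matplotlib 3.10.9 did the rest.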

Additional observations from a re-analysis of the deposited data

How the results depend on the processing

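All 90 log2 fold changes of the members under the alternatives run for them were above 0. Part of these could not differ from the main fit. Changing the filter, dropping the trend or adding the replicate block leaves a log2 fold change as it is. Median-ratio rescaling used the same factor, 1.004, in every library. Equalising the FPKM totals outside rRNA-related loci gave 1.21 for *Hist1h1c* and 0.35 for *H1f0*, and a pseudocount of 1 gave 1.77 for *Hist1h1d* and 0.20 for *H1fx*. Leaving out 1 library at a time gave ranges of 1.70 to 2.10 for *Hist1h1a*, 1.57 to 1.75 for *Hist1h1b*, 1.15 to 1.18 for *Hist1h1c*, 1.80 to 1.88 for *Hist1h1d*, 1.11 to 1.48 for *Hist1h1e*, 0.28 to 0.35 for *H1f0* and 0.32 to 0.90 for *H1fx*. The log2 ratio of the summed *Hist1h1* FPKM, 1.58 in all libraries, ran from 1.51 to 1.65, and was 1.49 with RefSeq lengths. *Nat10* ran from -1.35 to -0.83 and did not pass the threshold without shNAT10-1 or without shNAT10-2, at -1.07 and -1.11.

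Counts moved more. Genes called higher ran from 1108 to 1734 and genes called lower from 899 to 1659 with a library left out, the lowest without shNAT10-1, against 1691 and 1576; without shNAT10-2 1007 genes were called lower. An adjusted p under 0.05, given to 88 genes, was given to 0 with a pseudocount of 1 or 0.01, with no filter, without the trend, with the replicate block and with any library left out (0 to 0), to 296 at a mean FPKM of at least 1, to 136 with equal totals outside rRNA-related loci and to 1580 in limma-voom; the cause was not tested. The members given an adjusted p under 0.05 therefore depend on the setting. Core histones called higher ran from 37 to 48 and called lower from 0 to 1 (1 without shNC-1) with a library left out. S-phase genes called higher were 6 without the trend and ran from 4 to 18 with a library left out, 4 without shNAT10-1 and 4 without shNAT10-2.

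Libraries that share a replicate number did not deviate together (correlation 0.007 over 20116 genes), so the number names a library only. The replicate block gave 1587 genes higher and 1527 lower. Depth limits *H1fx* and the germline linker histones, which rest on 10 fragments or fewer a library.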
